A study of Mus musculus with 24 samples.

Results

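Hyperplastic mammary tissue of PyMT mice at week 6 was compared with the normal mammary gland of FVB mice of the same age. The comparison used 6 of the 24 small RNA libraries of the series, 3 from PyMT mice and 3 from FVB mice, chosen by genotype and week as the sample labels give them. The PyMT mice were F1 females on the FVB strain that carried 1 copy of the MMTV-PyMT transgene, and the controls were homozygous FVB females of 6 weeks without it. The MMTV promoter drives the polyoma middle T antigen in mammary epithelium, so the oncogene acts throughout the gland and not in 1 clone. By the study's methods each library came from a separate mouse, and tissue of the hyperplasia stage still holds cells of the normal gland. In such bulk tissue, fewer cells of a type and less RNA per cell cannot be told apart.

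A microRNA (miRNA) is a short RNA that guides the silencing machinery to messenger RNAs, mainly through its seed, the bases near its 5′ end that pair with the target. miRNAs with the same seed form a family and can share targets, while miRNAs encoded next to each other are often cut from a single primary transcript. In the mammary gland, the miR-200 family marks epithelium and holds back epithelial-mesenchymal transition, miR-143 and miR-145 mark smooth muscle and fibroblasts, and miR-126 marks endothelium. Hyperplasia is the earliest lesion of this model, before adenoma and carcinoma.

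The deposited table lists 510 miRNA names with the number of reads counted on each. Of these, 237 passed the filter on low counts and were tested, 105 had counts at week 6 but too few, 22 had counts only at later weeks, and 146 were listed at 0 in every library of the series. The last include 55 of the 56 miRNAs that the mm9 annotation places only on chromosome X, such as miR-221, miR-222 and the myeloid miR-223, a gap across 1 chromosome of the table, so their 0s are not read as absence of expression. At week 6, 342 names had at least 1 count, 10 of them in PyMT libraries only and 32 in FVB libraries only, where the FVB libraries were also deeper. Total counts ran from 1208516 to 2102395 in PyMT and from 1949948 to 3486314 in FVB libraries, so that 3 counts, the floor of detection, stood for 1.43 to 2.48 and 0.861 to 1.54 CPM, counts scaled to a common library size. Floors cover counting error only. Below, a level is the normalized CPM, the count scaled to the library and to the TMM factor of edgeR, and a difference is the log2 fold change of PyMT minus FVB with its standard error (SE).

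FVB replicate 3 stood apart from the other 2 normal glands of week 6. Its level of miR-133a, a skeletal muscle miRNA, was 95.0 CPM, where FVB replicates 1 and 2 had 88687 and 29636 CPM and the PyMT libraries 18103, 9281 and 2258 CPM. It also held 694 CPM of miR-196a, which is encoded in the Hox clusters, against 1.98 and 2.95 CPM in FVB replicates 1 and 2 and 1.02, 0.852 and 3.75 CPM in the PyMT libraries. Muscle miRNAs were thus more spread in the normal group, with summed levels of the 6 listed muscle miRNAs from 100.1 to 91695 CPM in FVB and from 2363 to 18511 CPM in PyMT. Low muscle levels also occurred in later normal glands. On the scale of all 24 libraries, the FVB sums ran from 173 to 341 CPM at week 8. They ran from 90.5 to 45434 CPM at week 10 and from 711 to 89385 CPM at week 12. Replicates 1 and 2 of both groups were sequenced on one lane and replicate 3 of both groups on the other. Results that rest on FVB replicate 3 are given with and without it.

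The mature sequences below are those the main results turn on, 5′ to 3′, from RefSeq (GRCm38.p6), with the seed (bases 2 to 8) in capitals. Of 70 mature sequences looked up, 61 had an entry. The names in the count table carry no arm, so the arm printed is the one usually taken as the active strand. The first group shows miRNAs that share a seed but did not all pass the test in 1 direction at week 6.
miR-92b-3p: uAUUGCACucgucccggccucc
miR-92a-3p: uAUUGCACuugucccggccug
miR-25-3p: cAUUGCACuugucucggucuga
miR-146b-5p: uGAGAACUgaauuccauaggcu
miR-146a-5p: uGAGAACUgaauuccauggguu
miR-148a-3p: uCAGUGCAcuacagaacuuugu
miR-148b-3p: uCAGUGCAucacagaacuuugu
miR-152-3p: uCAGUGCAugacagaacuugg
miR-27b-3p: uUCACAGUggcuaaguucugc
miR-27a-3p: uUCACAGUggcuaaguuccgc
miR-195-5p: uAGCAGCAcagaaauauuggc
miR-16-5p: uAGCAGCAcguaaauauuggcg

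The second group shows the epithelial families, whose members were over-expressed together.
miR-200b-3p: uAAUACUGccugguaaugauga
miR-200c-3p: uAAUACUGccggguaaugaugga
miR-429-3p: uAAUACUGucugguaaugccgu
miR-200a-3p: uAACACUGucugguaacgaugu
miR-141-3p: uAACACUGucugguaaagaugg
miR-182-5p: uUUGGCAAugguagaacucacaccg
miR-96-5p: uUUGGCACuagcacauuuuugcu
miR-183-5p: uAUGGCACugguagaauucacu

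The third group shows miRNAs of the Dlk1-Dio3 domain, which carry different seeds and were under-expressed together.
miR-127-3p: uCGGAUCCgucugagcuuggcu
miR-539-5p: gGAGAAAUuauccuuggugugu
miR-377-3p: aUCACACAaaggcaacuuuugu
miR-154-5p: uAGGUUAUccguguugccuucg
miR-410-3p: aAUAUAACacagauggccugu

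At week 6, 139 of the 237 tested miRNAs (58.6%) were differentially expressed by edgeR's quasi-likelihood test at a Benjamini-Hochberg adjusted p under 0.05. In hyperplasia 69 (29.1%) were over-expressed and 70 (29.5%) under-expressed. The levels of the 3 PyMT and the 3 FVB libraries did not overlap for 163 tested miRNAs (68.8%), and among the 139 the groups overlapped for 1, miR-196a. The median difference was 1.45 for the over-expressed and -1.12 for the under-expressed miRNAs, beside -0.12 for all tested. Changes of more than 2-fold were seen for 50 over-expressed and 43 under-expressed miRNAs, and changes of more than 4-fold for 14 and 4.

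The over-expressed miRNAs held 52.2% to 54.4% of the counts in PyMT libraries against 14.4% to 20.4% in FVB libraries. Most of this was miR-148a, with 30.3% to 32.7% of PyMT counts and 6.95% to 10.6% of FVB counts. miR-143 took 9.01% to 10.4% of PyMT counts and 15.6% to 19.5% of FVB counts. Because such miRNAs weigh on every other share, the scaling matters, and with library sizes alone the median difference over all tested miRNAs moved by -0.14, to -0.26, with 56 over-expressed and 83 under-expressed. Without FVB replicate 3, 150 miRNAs were called, 72 over-expressed and 78 under-expressed, and 129 of the 139 were among them.

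**Figure D1:**
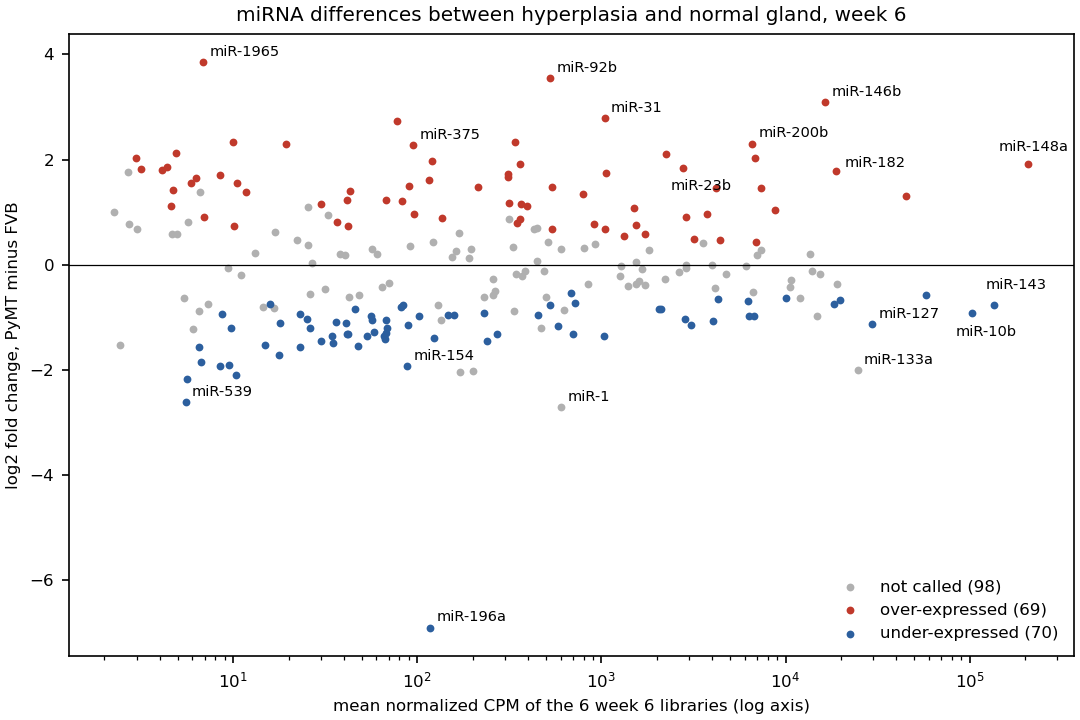
Each point is 1 of the 237 tested miRNAs, with its mean normalized CPM over the 6 week 6 libraries (log axis) against its log2 fold change, PyMT minus FVB; red points were over-expressed (69), blue under-expressed (70) and grey not called (98). miR-148a is the most abundant over-expressed miRNA, and miR-196a, at -6.90, lies far below the rest because of 1 FVB library.

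Epithelial miRNAs were higher in hyperplasia as families. All 5 members of the miR-200 family were over-expressed, with a median difference of 1.92, where 29.1% of all tested miRNAs were over-expressed. The 5 members come from separate loci, miR-200b, miR-200a and miR-429 on chromosome 4 and miR-200c and miR-141 on chromosome 6. They carry either of the seeds AAUACUG and AACACUG. Levels of miR-200b were 10863, 11315 and 10833 CPM in PyMT and 1542, 2441 and 2700 CPM in FVB libraries. The PyMT libraries lay close together and all above the FVB libraries, a 4.94-fold difference (log2 2.30, SE 0.22, adjusted p = 5.04e-04, edgeR). For miR-429 the difference was 4.33-fold, from 3624, 3796 and 3453 CPM against 677, 905 and 929 CPM. miR-200c was less abundant, at 695, 479 and 531 CPM in PyMT and 153, 182 and 115 CPM in FVB, and its difference of 1.92 was within the range of the family, from 1.48 to 2.30. The family's summed level ran from 16712 to 17676 CPM in PyMT and from 2850 to 4444 CPM in FVB libraries.

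The cluster of miR-183, miR-96 and miR-182 is cut from one transcript on chromosome 6 and common in epithelial and sensory cells. It was over-expressed for 3 of 3 members, where 29.1% of all tested miRNAs were. The seeds of miR-182 and miR-96 differ in their last base, and that of miR-183 differs from both. miR-183 was at 10731, 10734 and 11524 CPM in PyMT and at 1392, 2835 and 3853 CPM in FVB libraries, with a difference of 2.03 (SE 0.34, adjusted p = 0.00299, edgeR). The 3 FVB libraries were more spread than the PyMT libraries here, as they were for miR-96 (132, 129 and 141 CPM against 25.2, 45.0 and 71.6 CPM).

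Among the other epithelial miRNAs the picture was divided. miR-31, which is known for roles in mammary stem cells and invasion, was at 1722, 2102 and 1650 CPM in PyMT and at 397, 244 and 151 CPM in FVB, a 6.91-fold difference (log2 2.79, SE 0.36, adjusted p = 0.00108, edgeR). miR-375, a miRNA of luminal and endocrine epithelium, was at 124, 163 and 187 CPM in PyMT and at 23.3, 41.7 and 32.6 CPM in FVB, a 4.84-fold difference (adjusted p = 0.00135, edgeR). Both were higher in every PyMT library. In contrast, miR-205, a miRNA of basal and myoepithelial cells, was at 4196, 4250 and 3430 CPM in PyMT and at 2818, 3295 and 5860 CPM in FVB. Its groups overlapped, and its difference was -0.01 (SE 0.28, adjusted p = 0.971, edgeR), although on the lane of replicates 1 and 2 alone it was 0.54 (adjusted p = 0.0428). miR-203, of stratified epithelium, also overlapped, with a difference of -0.40 (SE 0.30). All 8 members of both families stayed over-expressed with any 1 library left out. Whether miR-31, miR-375, miR-205 and miR-203 differ from each other in their change was not tested.

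Several families with a shared seed did not move as one, as the plot of seed groups by library shows. The miR-25 and miR-92 seed group (AUUGCAC) was one of them. miR-92b was at 1022, 897 and 994 CPM in PyMT and at 81.7, 98.5 and 69.2 CPM in FVB libraries, an 11.7-fold difference (log2 3.55, SE 0.22, adjusted p = 4.92e-05, edgeR). miR-92a, of the miR-17~92 cluster and by far the more abundant, was at 65158, 57841 and 70316 CPM against 18941, 32018 and 27530 CPM, a 2.46-fold difference. miR-25 was at 3851, 4237 and 4060 CPM against 2459, 3242 and 3436 CPM, and its difference of 0.41 did not pass the threshold (SE 0.16, adjusted p = 0.0618, edgeR). The ratio of miR-92b to miR-92a counts was 0.00251 to 0.00431 in FVB libraries and 0.0141 to 0.0157 in PyMT libraries. Without FVB replicate 3, miR-25 was over-expressed (0.51, adjusted p = 0.0301, edgeR). Without gaps, the mature sequences of miR-92b and miR-92a differ at 2 positions.

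In the miR-146 seed group (GAGAACU), miRNAs induced by inflammatory signaling, the members went apart. miR-146b, in an intron of Tmem180 on chromosome 19 (mm9, 46417252 to 46417360), was at 33182, 25372 and 29574 CPM in PyMT and at 3039, 4015 and 3316 CPM in FVB libraries. That is an 8.50-fold difference (log2 3.09, SE 0.18, adjusted p = 4.92e-05, edgeR). miR-146a was at 1433, 1221 and 1393 CPM in PyMT and at 1765, 1905 and 1516 CPM in FVB, with a difference of -0.36 that did not pass the threshold (SE 0.16, adjusted p = 0.0884, edgeR), and it did without FVB replicate 3 (-0.44, adjusted p = 0.0404) or with library sizes only (-0.50, adjusted p = 0.0287). In FVB libraries there were 1.72 to 2.19 counts of miR-146b for each count of miR-146a, and in PyMT libraries 20.8 to 23.2. Their mature sequences differ at 2 positions near the 3′ end.

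In the miR-148 and miR-152 family (seed CAGUGCA), miR-148a, a miRNA abundant in the lactating gland and in milk, was at 350355, 311824 and 324366 CPM in PyMT and at 67059, 99763 and 92891 CPM in FVB libraries. miR-148b, in an intron of Copz1, was at 4941, 5248 and 4750 CPM against 2143, 2569 and 2883 CPM, a 1.97-fold difference (adjusted p = 0.00269, edgeR). miR-152, in an intron of Copz2, lay the other way, at 584, 579 and 513 CPM in PyMT and 762, 747 and 906 CPM in FVB. Its difference was -0.53 (SE 0.17, adjusted p = 0.0316, edgeR), and with the replicate number as a block it did not pass the threshold (adjusted p = 0.0956), as without any library but FVB replicate 1.

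The paralogous clusters of miR-23b with miR-27b and of miR-23a with miR-27a showed the same kind of split. miR-23b was at 4479, 5016 and 3593 CPM in PyMT and at 1407, 1257 and 966 CPM in FVB libraries, a 3.61-fold difference (log2 1.85, SE 0.20, adjusted p = 6.28e-04, edgeR). miR-27b, which lies next to it in an intron of 2010111I01Rik on chromosome 13, was at 10369, 12442 and 9347 CPM against 4407, 3443 and 3908 CPM. The chromosome 8 copies did not pass the threshold, with miR-23a at 1451, 1360 and 1489 CPM in PyMT and 1996, 1711 and 1605 CPM in FVB (difference -0.30, SE 0.15, adjusted p = 0.122, and 0.0352 with library sizes only, edgeR). For miR-27a the difference was -0.37 (SE 0.19), or -0.49 without FVB replicate 3 (adjusted p = 0.0432, edgeR), and for miR-24, which both clusters encode, it was -0.21. The mature forms of miR-27b and miR-27a differ at 1 position.

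In the miR-15, miR-16 and miR-195 seed group (AGCAGCA), whose members restrain cyclins, miR-195 and miR-497 were under-expressed and the others did not pass the threshold. miR-195 was at 1860, 1985 and 1934 CPM in PyMT and at 3283, 3412 and 5989 CPM in FVB libraries, with a difference of -1.13 (SE 0.25, adjusted p = 0.00846, edgeR). miR-497, encoded beside it on chromosome 11, had a difference of -0.95 (SE 0.21) and was not called without PyMT replicate 2. The more abundant miR-16 was at 3625, 3549 and 3333 CPM against 3698, 4386 and 6124 CPM (difference -0.44, SE 0.20, adjusted p = 0.0958, edgeR), and miR-15b lay above 0 at 0.61 (SE 0.24, adjusted p = 0.0615). Both calls depended on the setting. miR-15b was over-expressed with DESeq2's Wald test (0.65, adjusted p = 0.0169), DESeq2 size factors, a single fit of all libraries and without the 5 most counted miRNAs. miR-16 was under-expressed with library sizes only (-0.58, adjusted p = 0.0424, edgeR), a filter on the week 6 libraries alone and without FVB replicate 1. Whether members of a seed group differ in their change was not tested beyond the ratios given.

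**Figure D2:**
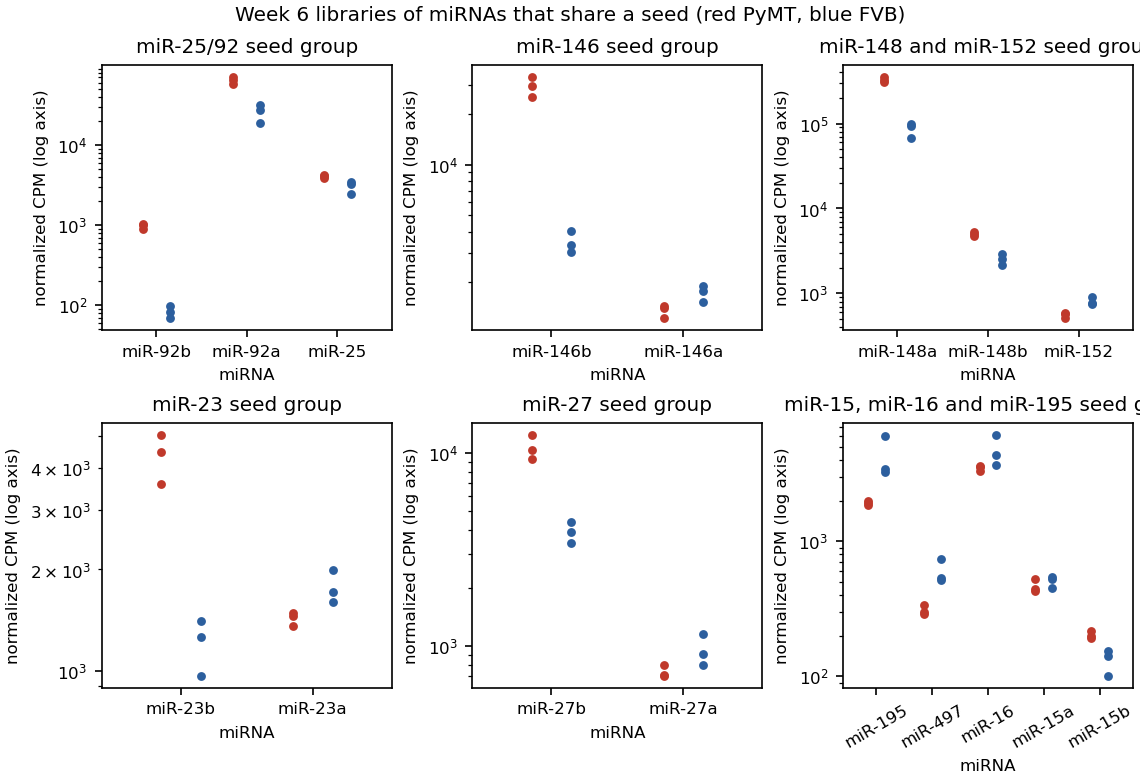
Each panel shows miRNAs of 1 seed group, with normalized CPM on a log axis and a point for each of the 3 PyMT (red) and 3 FVB (blue) libraries of week 6. miR-92b, miR-146b, miR-148a, miR-23b and miR-27b lie above the FVB libraries in all 3 PyMT libraries, while miR-146a and miR-23a lie below them.

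Proliferation-linked clusters differed in how many members passed the test. Of the miR-17~92 cluster, a MYC target on chromosome 14, 5 of 6 tested members were over-expressed, with a median difference of 1.23 over the 6. Among all tested miRNAs the share over-expressed was 29.1%. miR-19a was at 540, 387 and 486 CPM in PyMT and at 90.6, 153 and 201 CPM in FVB libraries (difference 1.67, SE 0.32, adjusted p = 0.00540, edgeR), and miR-19b did not pass the threshold at 0.43. Without PyMT replicate 1 or 2, 2 members were called, and without PyMT replicate 3 or FVB replicate 2, 3 were. Without FVB replicate 1, 5 were called, and without FVB replicate 3 all 6, miR-19b included. Of the miR-106b~25 cluster, in Mcm7 on chromosome 5, 0 of 3 members passed the threshold in this test, with differences from 0.34 to 0.41 and unadjusted p under 0.05 for 1, miR-25. DESeq2's Wald test also called 0. miR-25 was over-expressed with DESeq2 size factors (adjusted p = 0.0412), in a single fit of all libraries (adjusted p = 0.0248) and without the 5 most counted miRNAs (adjusted p = 0.0253, edgeR), and both miR-25 and miR-93 were on lane 1 alone and without FVB replicate 3. miR-210, the hypoxia-induced miRNA, was at 538, 567 and 526 CPM in PyMT and at 242, 228 and 278 CPM in FVB, a 2.18-fold difference (adjusted p = 0.00296, edgeR), while miR-21, an abundant oncogenic miRNA, overlapped between the groups with a difference of -0.18 (SE 0.21).

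The plot of levels by library shows the 12 most over-expressed and 12 most under-expressed miRNAs whose groups did not overlap. The highest difference, 3.86 for miR-1965, rested on few reads, 28, 13 and 21 counts in PyMT and 3, 1 and 3 counts in FVB libraries. Others at this end were more deeply counted. miR-298, which lies near miR-296 on chromosome 2, was at 653, 394 and 656 CPM in PyMT and at 47.0, 153 and 137 CPM in FVB (difference 2.33, SE 0.46, adjusted p = 0.00551, edgeR), and miR-296 had a difference of 1.97 (SE 0.47). miR-1983 was at 156, 101 and 151 CPM against 10.4, 25.8 and 24.4 CPM, a 6.66-fold difference.

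The group of miR-466 and related miRNAs, many of them repeated in an intron of Sfmbt2 on chromosome 2, was over-expressed as far as it passed the test. The mm9 annotation places some names of these families elsewhere, such as miR-466i and miR-467f. Of 38 listed names, 15 were tested. Of these 10 were over-expressed and 0 under-expressed, where 29.1% and 29.5% of all tested miRNAs were. All 15 differences lay above 0, with a median of 1.42. With the replicate block, 8 were called, and without PyMT replicate 1 or 2, 5. miR-466b was at 33.2, 30.7 and 32.5 CPM in PyMT and at 4.95, 7.38 and 7.05 CPM in FVB libraries (difference 2.29, SE 0.25, adjusted p = 6.28e-04, edgeR). These miRNAs are rare, with summed levels from 140.0 to 170.4 CPM in PyMT and from 44.1 to 60.8 CPM in FVB. Their near-identical copies mean that counts by name are uncertain, and the members are not independent of each other.

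**Figure D3:**
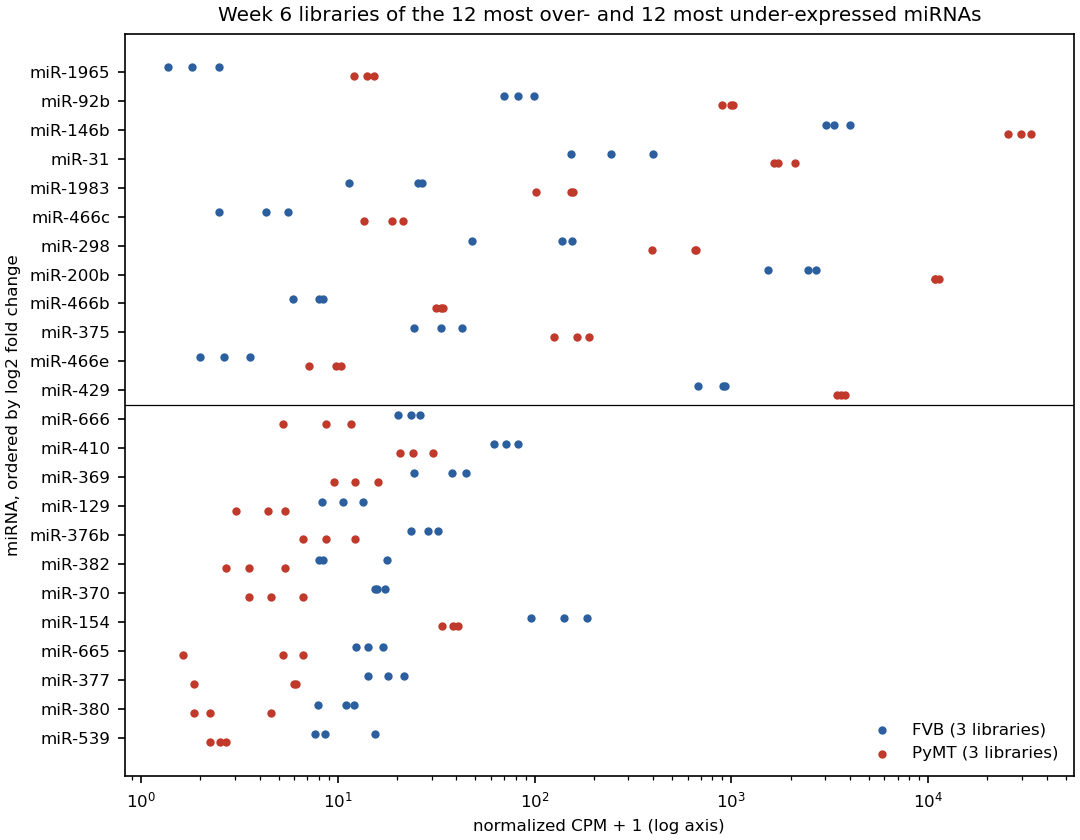
Normalized CPM + 1 (log axis) of each of the 3 PyMT (red) and 3 FVB (blue) libraries of week 6 for the 12 miRNAs with the highest and the 12 with the most negative difference, taken from called miRNAs without overlap of the groups. Over-expressed miRNAs range from 6.12 CPM (the lowest PyMT library of miR-466e) to 33182 CPM (miR-146b), while the under-expressed ones reach 184 CPM at most (miR-154).

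At the other end, 11 of the 12 most under-expressed miRNAs belong to the Dlk1-Dio3 domain, an imprinted region of chromosome 12 whose miRNAs are expressed from the maternal chromosome, the exception being miR-129, whose call was lost without PyMT replicate 1 or 2 and in a single fit of all libraries (adjusted p = 0.167, edgeR). Of the 11, miR-382 was lost without PyMT replicate 1 or 2 and miR-665 without PyMT replicate 2. The positioned members span 110810200 to 110982005 on chromosome 12 of mm9. Of the 50 listed names and 2 more found by position, miR-341 and miR-370, 39 were tested, 36 were under-expressed, and all 39 differences lay below 0, from -2.61 to -0.62, with a median of -1.31. Outside the domain 34 of 198 tested miRNAs (17.2%) were under-expressed. The groups did not overlap for 38 of the 39, where 68.8% of all tested miRNAs showed no overlap, and the block also called 36. These miRNAs share a domain and are not independent observations.

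By the mm9 annotation its positioned members lie opposite Rtl1, within Rian or Mirg, or between genes. Its most abundant member, miR-127, which lies antisense to Rtl1 and whose sequence is fully complementary to that transcript, was at 21556, 16284 and 17993 CPM in PyMT and at 38674, 38182 and 44633 CPM in FVB libraries (difference -1.12, SE 0.16, adjusted p = 0.00182, edgeR). miR-434, also antisense to Rtl1, was at 743, 515 and 484 CPM against 1709, 1300 and 1418 CPM (difference -1.34, SE 0.22). The FVB libraries were high in both, replicate 3 included.

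miR-154, in an intron of the noncoding RNA Mirg, was at 32.7, 37.5 and 40.0 CPM in PyMT and at 141, 94.4 and 184 CPM in FVB libraries (difference -1.93, SE 0.30, adjusted p = 0.00258, edgeR). miR-410, in an exon of Mirg, was at 29.6, 19.6 and 23.1 CPM against 70.8, 60.9 and 81.1 CPM (difference -1.55, SE 0.25, adjusted p = 0.00296, edgeR). For miR-370, in an intron of the noncoding RNA Rian, levels were 3.57, 2.56 and 5.63 CPM against 16.3, 14.8 and 14.4 CPM. The lowest difference, -2.61 for miR-539, came from 3, 2 and 2 counts in PyMT and 29, 18 and 28 counts in FVB libraries.

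Leaving out 1 library left between 20 and 35 members of the domain under-expressed, with 20 without PyMT replicate 2, 24 without PyMT replicate 3 and 34 without FVB replicate 3. Of the 26 members with at least 10 counts in every week 6 library, 26 were under-expressed.

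miRNAs of fibroblasts and smooth muscle were lower in hyperplasia. All 5 listed members, miR-143, miR-145, miR-199a, miR-199b and miR-214, were under-expressed, with a median difference of -0.96. Among all tested miRNAs the share under-expressed was 29.5%. miR-145 was at 364, 320 and 393 CPM in PyMT and at 614, 713 and 1078 CPM in FVB libraries (difference -1.16, SE 0.25, adjusted p = 0.00846, edgeR). miR-199a was at 4592, 4094 and 5099 CPM against 9070, 8555 and 9284 CPM (difference -0.96, SE 0.14, adjusted p = 0.00184, edgeR). Without PyMT replicate 2, miR-199a and miR-199b were called and the other 3 were not. miR-214 also lost its call without PyMT replicate 1 or 3 or FVB replicate 2. The groups did not overlap for any of the 5, where 68.8% of all tested miRNAs showed no overlap. The summed level was 102029 to 118202 CPM in PyMT and 166225 to 199293 CPM in FVB. miR-199a and miR-199b have the same 3p sequence, so their counts cannot be read apart.

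miRNAs that lie within the Hox clusters were also lower. miR-10b, in an intron of Hoxd3 and Hoxd4, was at 65388, 66100 and 83926 CPM in PyMT and at 122707, 125444 and 157802 CPM in FVB libraries (difference -0.91, SE 0.18, adjusted p = 0.00540, edgeR). miR-10a, its paralog at Hoxb4, was at 50619, 51798 and 37637 CPM against 64075, 71495 and 72592 CPM (difference -0.57, SE 0.17, adjusted p = 0.0229, edgeR). miR-615, in an intron of Hoxc5, had a difference of -1.11 (SE 0.26). Of 4 calls in this list, miR-196a included, 2 were left without PyMT replicate 1, 1 without PyMT replicate 3 and 0 without PyMT replicate 2. miR-10a was also lost without FVB replicate 2.

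The call of miR-196a, at -6.90 (SE 2.38, adjusted p = 0.0390, edgeR), rested on FVB replicate 3, without which the difference was -0.39 (adjusted p = 0.598). It was also lost without any 1 of the PyMT libraries. With the replicate block its adjusted p was 0.00802. For miR-196b, at 25.5, 40.9 and 134 CPM in PyMT and 35.8, 117 and 666 CPM in FVB, the difference of -2.03 did not pass the threshold without the block (adjusted p = 0.138) and passed it with the block (adjusted p = 0.0421, edgeR).

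In other families with a tumor-suppressor reputation some members were lower, where 29.5% of all tested miRNAs were under-expressed. Of the miR-99, miR-100 and miR-125 families, miR-100, miR-99a and miR-125b were under-expressed and 2 of the 5 were not called. miR-100 was at 1877, 1949 and 1778 CPM in PyMT and at 3838, 3591 and 4035 CPM in FVB libraries (difference -1.03, SE 0.13, adjusted p = 0.00108, edgeR). miR-99b, which shares its seed, lay at 0.29 (SE 0.15, adjusted p = 0.142). Without PyMT replicate 1 or 2, 1 of the 3 calls was left, and miR-125b was also lost without FVB replicate 1.

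Of the p53-linked miR-34 family, miR-34b and miR-34c, cut from one transcript on chromosome 9, were under-expressed at -1.35 and -0.95, and miR-34a, from chromosome 4, was at 0.43 (SE 0.25, adjusted p = 0.174, edgeR). Of the 8 tested let-7 miRNAs, let-7a was under-expressed at -0.63 (SE 0.14, adjusted p = 0.00875, edgeR) and 7 were not called, with all 8 differences below 0, or 6 of 8 with DESeq2 size factors. miR-29c was under-expressed at -0.84 (SE 0.27), and miR-29a and miR-29b were not called. Without PyMT replicate 2 neither the miR-34 miRNAs nor let-7a were called, and without PyMT replicate 1 or 3 miR-34c was not. The call of miR-29c was lost without any PyMT library or FVB replicate 1, and without FVB replicate 3 miR-29a was called too (-0.61, adjusted p = 0.0281, edgeR). miR-29b was under-expressed with DESeq2's Wald test (-0.75, adjusted p = 0.0296), library sizes only, the week 6 filter and a single fit of all libraries. With library sizes only or the week 6 filter let-7e and let-7i were under-expressed as well.

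Over-expression was also seen in the miR-181 family, a regulator of lymphoid and stem cell fates, for 3 of 4 members, of which miR-181a was lost with the replicate block (difference 0.50, adjusted p = 0.0277, and 0.0609 with the block, edgeR). In the miR-30 family 2 of 5 tested members were over-expressed, miR-30c (0.91, SE 0.15) and miR-30a (0.48, SE 0.15), and 3 were not called. For miR-30a the adjusted p was 0.0622 under the block (edgeR). Of all tested miRNAs, 29.1% were over-expressed. Without PyMT replicate 2 or FVB replicate 2 the miR-181 family had 0 calls, without PyMT replicate 1 it had 1, and miR-30a was lost without PyMT or FVB replicate 1 or 2.

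**Figure D4:**
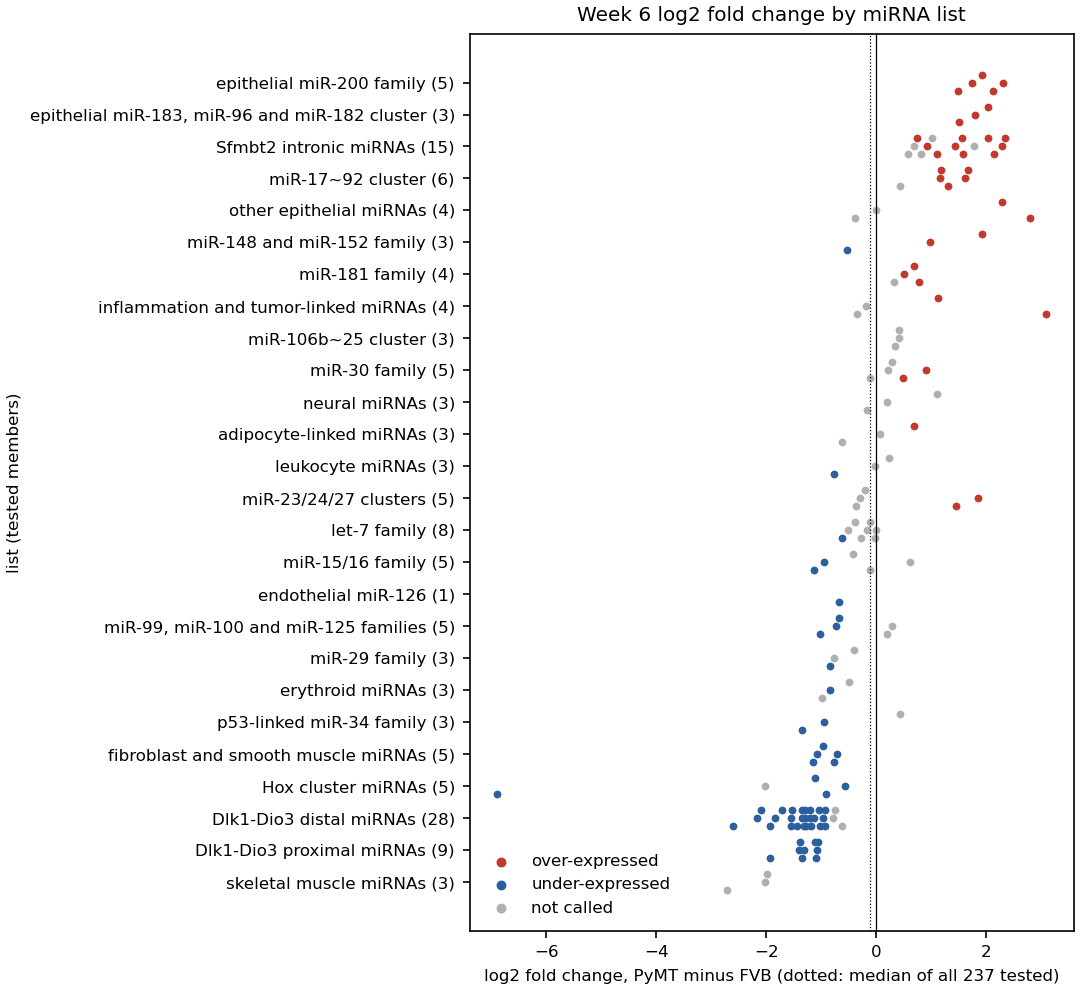
Each point is a tested member of a miRNA list, placed by its week 6 log2 fold change, PyMT minus FVB, with red over-expressed, blue under-expressed and grey not called; lists are ordered by their median, the count of tested members is in parentheses, and the dotted line is the median of all 237 tested miRNAs. The epithelial families lie to the right, the Dlk1-Dio3, Hox and fibroblast lists to the left, and the 3 muscle miRNAs, with a median of -2.02, are not called.

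Markers of other cell types in the gland moved to different degrees. The 3 tested muscle miRNAs had a median difference of -2.02, and 0 passed the threshold of edgeR, of DESeq2 or at an unadjusted p under 0.05. The FVB libraries lay on both sides of the PyMT libraries. Without FVB replicate 3 all 3 were under-expressed, miR-1 at -3.29 (adjusted p = 0.00114), miR-133b at -2.60 (adjusted p = 0.00974) and miR-133a at -2.58 (adjusted p = 0.0133, edgeR). That library was set apart above by its low miR-133a, so these p-values are not an independent test of the muscle miRNAs. The endothelial miR-126, in Egfl7, was at 13495, 19261 and 12844 CPM in PyMT and at 23266, 21988 and 27533 CPM in FVB libraries (difference -0.67, SE 0.20, adjusted p = 0.0221, edgeR). The erythroid miR-451 was at 1312, 1860 and 1342 CPM against 3062, 2851 and 2159 CPM (difference -0.84, SE 0.21, adjusted p = 0.0131, edgeR), while miR-144, from the same transcript, and miR-486 were not called. Without FVB replicate 3, miR-144 (-0.74, adjusted p = 0.0325) and miR-486 (-1.42, adjusted p = 0.00358, edgeR) were also under-expressed. The calls of miR-126 and miR-451 were lost without PyMT replicate 1 or 3.

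Among leukocyte miRNAs, the lymphocyte miRNA miR-150 was at 314, 510 and 342 CPM in PyMT and at 672, 667 and 645 CPM in FVB (difference -0.77, SE 0.23, adjusted p = 0.0232, edgeR), and the pan-leukocyte miR-142 overlapped at -0.02 (SE 0.19). The call of miR-150 was lost without PyMT replicate 1 or 3 or FVB replicate 2. miR-193b, linked to fat cells, was over-expressed by a small margin (difference 0.68, adjusted p = 0.0485, and 0.0622 with the block, edgeR) and was lost without any 1 of the 6 libraries, and miR-365 and miR-378 were not called. The liver miRNA miR-122 did not exceed 1.25 CPM in any week 6 library. Of the 3 tested neural miRNAs, miR-9, miR-219 and miR-128, 0 were called, with differences from -0.18 to 1.10. The part of these cell types in the other differences was not tested.

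Beyond the named domains, most miRNAs that lie next to each other had differences of the same sign, whether or not they passed the test. The mm9 annotation placed 208 tested miRNAs. Outside the Dlk1-Dio3 and Sfmbt2 groups, 42 pairs lay within 10000 bases on the same strand, and 39 of them (92.9%) had differences of the same sign, where 50.1% of all 21528 pairs did. In 18 of the 42 pairs both were called, and 0 of these 18 went in opposite directions. The 3 pairs with opposite signs were miR-15b with miR-16, miR-192 with miR-194, and miR-30b with miR-30d. Pairs share members, so these shares are a description.

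The later weeks were compared to see which of the differences of hyperplasia were also present in adenoma and carcinoma, with their own PyMT and FVB libraries. By the same weekly edgeR test, 35.4% of tested miRNAs were called at week 8, 60.3% at week 10 and 50.6% at week 12. Of the 139 called at week 6, 62 were called at all 3 later weeks, 51 at some and 26 at none, and 132 had the same sign at all 4 weeks. Of the over-expressed miRNAs, 40 of 69 had a larger mean difference at the later weeks than at week 6, and of the under-expressed ones 24 of 70. Both sets were picked by their week 6 test, which favors larger differences at week 6. Of the 70, 36 belong to the Dlk1-Dio3 domain and are not independent, so these counts are a description and show no trend.

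The difference of these differences, week 6 against the mean of weeks 8, 10 and 12, was then tested in a fit of all 24 libraries. In edgeR 0 of 237 miRNAs (0%) passed the threshold, with a lowest adjusted p of 0.105, and 25 (10.5%) had an unadjusted p under 0.05. The smallest p belonged to miR-150, whose difference was -0.77 at week 6 and -2.29, -2.66 and -2.58 at weeks 8, 10 and 12. miR-10b followed, at -0.91 and then -1.99, -1.95 and -2.51, and miR-181a, at 0.50 and then 1.17, 1.02 and 1.06. In each of these 3 the week 6 difference was the smallest of the 4. DESeq2's Wald test called miR-150 and miR-10b, so that for these the result depended on the test.

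The 26 miRNAs called at week 6 and at no later week were 4 over-expressed and 22 under-expressed. Of the 22, 19 belong to the Dlk1-Dio3 domain, as do 36 of all 70 under-expressed miRNAs of week 6. The others of the 26 were miR-151, miR-193b, miR-1981 and miR-1982, over-expressed, and miR-152, miR-196a and miR-872, under-expressed. Of these, miR-151 (adjusted p = 0.0609) and miR-872 (adjusted p = 0.0718, edgeR) also missed the threshold under the replicate block, as did miR-152 and miR-193b. The median difference of the 39 tested members of the domain was -1.31 at week 6 and -0.72, -0.72 and -0.43 at weeks 8, 10 and 12, with 36, 3, 14 and 4 called. For 37 of the 39 the difference was lower at week 6 than at the later weeks, and 6 had an unadjusted p under 0.05, but 0 passed the threshold of that test in edgeR or DESeq2 (lowest adjusted p = 0.389 in edgeR). miR-337, for example, was at -1.41 (SE 0.27) at week 6 and at -0.29, -0.38 and -0.16 later.

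Summed over the domain, on the scale of all 24 libraries, the FVB libraries held 39242 to 46355 CPM at week 6 and 13134 to 26970, 10409 to 25816 and 10794 to 17174 CPM at weeks 8, 10 and 12. The PyMT libraries held 16645 to 22823 CPM at week 6 and 10423 to 18284, 10544 to 11185 and 8975 to 11248 CPM at the later weeks. The week 6 FVB libraries thus lay above every other library of the series. Most of this sum is miR-127, and without it the FVB libraries of week 6 still held 3119 to 3857 CPM, above the 1213 to 1768 CPM of the PyMT libraries of that week and the 755 to 2432 CPM of the later FVB libraries.

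The epithelial families were already changed at week 6 by much of their later difference. The median of the miR-200 family was 1.92 at week 6 and 2.26, 2.14 and 2.32 later, and that of the miR-183 cluster was 1.79 at week 6, 2.03 at week 8 and 2.22 at week 12. All 8 of these miRNAs were called at all 4 weeks. For the fibroblast and smooth muscle miRNAs the medians were -0.96 at week 6 and -1.16, -1.22 and -1.44 later, with 5 of 5 called each week.

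**Figure D5:**
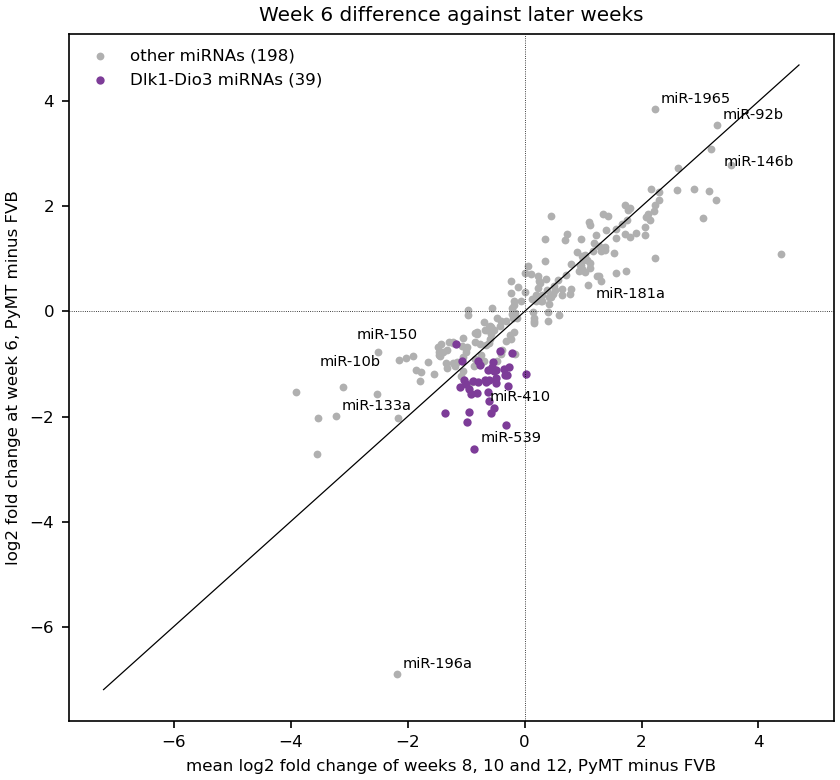
Each point is 1 of the 237 tested miRNAs, with the mean log2 fold change (PyMT minus FVB) of weeks 8, 10 and 12 on the horizontal axis and that of week 6 on the vertical axis; the solid line marks equal values. The 39 Dlk1-Dio3 miRNAs (purple) lie below 0 at week 6, and 37 of them fall below the line; miR-150 and miR-10b lie above it.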

How the data were processed

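Small RNA libraries of mammary tissue from 3 PyMT and 3 FVB mice of week 6 were compared, and the 18 libraries of weeks 8, 10 and 12 entered the filter on low counts and the comparison with later weeks. The authors removed barcode and adaptor, aligned reads of 17 to 27 bases with Bowtie, and deposited the raw count of reads overlapping more than 50% of each miRBase miRNA, without normalization. The paper's methods name mm10, while the labels and submitters' processing notes name mm9. Such counts split or merge reads of near-identical miRNAs in a way not given in the sources used here. Groups, weeks, replicate numbers and lanes came from the sample labels.

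Differential expression was tested, two-sided, with edgeR 4.0.16 in R 4.3.3 by its quasi-likelihood test. filterByExpr, run on the 24 libraries in their 8 groups, left 237 miRNAs, which were scaled by TMM and over which p-values were adjusted after Benjamini and Hochberg. The threshold was an adjusted p of 0.05. The SE is the log2 fold change divided by the square root of F. The alternatives were DESeq2 1.42.0 size factors and Wald test, library sizes only, edgeR's exact test, other filters, one fit to the 24 libraries together, a replicate block, a lane term, lane 1 alone, no top 5 miRNAs, a fold minimum, and each library left out in turn. How many members of each list were called under these was added after seeing the data. The fits were also run on simulated counts with known, balanced changes of a single size and 1 spread for all miRNAs. That setting is simpler than these data, and its outcome is not given here.

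Deviations from the group means of same-numbered PyMT and FVB libraries of week 6 correlated at 0.36, 0.20 and 0.51 across miRNAs. The numbers were therefore taken as a possible pairing, which entered the replicate block and not the main test. PyMT 1 with FVB 2 also correlated, at 0.31, and PyMT 2 with FVB 1 at 0.11, so numbers 1 and 2, which share lane 1, were not separated by this check. A pairing rests on the replicate numbers of the labels alone, and number 3 is also lane 2. Replicates of a group differed by far more than sampling noise, so each counts once. The median SD of log2 CPM was 0.22 in PyMT and 0.33 in FVB.

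The miRNAs named were drawn from the 12 with the highest and 12 with the lowest difference among calls without overlap. Also eligible were the 10 most abundant and up to 4 members of each list by smallest p. Members needed to account for a list, the 3 smallest p against later weeks and up to 6 called at week 6 alone completed the rule. Not all of these are described above, miR-26a among them. miR-196b, miR-296, miR-341, miR-24, miR-19b and the pairs and week 6 calls named outside this rule were picked once their values had been seen. The comparison and the lists were chosen with earlier results of these data known. Positions are from the mm9 annotation, which held 444 of the 510 names. Messenger RNA data were not analysed here.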

Additional observations from a re-analysis of the deposited data

How the results depend on the processing

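The count of called miRNAs, 139, lay between 116 and 145 under the alternatives that left out no single library and set no fold minimum, and between 78 and 150 with 1 library left out (over-expressed 44 to 72, under-expressed 30 to 78). It fell by more than 1.5 times without PyMT replicate 1 (89, with 44 and 45) and PyMT replicate 2 (78, with 48 and 30), and the under-expressed count also without PyMT replicate 3 (41). Of the 139, 66 were called in all 6 of these fits, 40 over-expressed and 26 under-expressed. All 139 kept their sign in every fit that included them, and some fits left some of them out. A minimum of 1 on the absolute log2 fold change left 43 under-expressed. The numbers were taken as a possible pairing of the samples. With the replicate block 135 were called, 64 over-expressed and 71 under-expressed, 130 of them among the 139. It changed the calls of miR-151, miR-152, miR-181a, miR-193b, miR-196b, miR-30a and miR-872, as given above, and of no other miRNA whose call is given singly. The difference against later weeks gave 0 calls, but 1 with library sizes only (miR-181a), 2 with DESeq2's Wald test and 2 with at least 10 counts in every week 6 library (miR-150 and miR-10b in both). On lane 1 alone miR-205 turned from -0.01 to 0.54 (adjusted p = 0.0428, edgeR, on 2 libraries per group). The causes were not tested. The depth, with a floor of up to 2.48 CPM, and 3 libraries per group limit the rarer miRNAs most.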
